A study of Homo sapiens with 16 samples.

Results

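The regions described here are CTCF-bound stretches of the human genome at which neither of 2 cohesin subunits, RAD21 and SMC1, had a called region. They were chosen by position: a region of the CTCF table was a member when it shared no base with any region of the RAD21 table or of the SMC1 table, whichever line those regions were called in. Of 171693 CTCF regions, 61368 met this rule (35.7%, Wilson 95% interval 35.5 to 36.0%, which covers the counting of regions only). Another 26275 CTCF regions overlapped RAD21 alone, 7272 overlapped SMC1 alone, and 76778 overlapped both subunits. No CTCF density, line call, length, acetylation or polymerase value entered the rule directly. A longer CTCF region has more room to share a base with a cohesin region, and the part of this in the lengths and densities below was not tested.

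The data came from chromatin immunoprecipitation followed by sequencing in DKO cells and in HCT116 cells. HCT116 is a colorectal carcinoma line from colon, and DKO is a derivative of HCT116 in which the genes of the DNA methyltransferases DNMT1 and DNMT3B are disrupted. Both lines were grown in McCoy's 5A medium with serum, and no other treatment is labelled. There was 1 library per line for each of 7 targets (CTCF, RAD21, SMC1, H3K27Ac, Pol2Ser5, Pol2Ser2 and TotalRNAPol2), so no difference between the lines has a replicate check and no p-value is given. Differences in DNA copy number between DKO and HCT116 and differences in the amount of protein bound cannot be told apart here.

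CTCF is a zinc-finger protein that binds a long DNA motif, marks insulators and domain borders, and at some of its sites binds less well when the DNA is methylated. Cohesin is a ring complex, with RAD21 and SMC1 among its core subunits, that extrudes chromatin loops and is often halted at CTCF. Acetylation of histone H3 at lysine 27 (H3K27Ac) marks active promoters and enhancers. RNA polymerase II carries serine 5 phosphorylation on its C-terminal repeat early in transcription (Pol2Ser5) and serine 2 phosphorylation during elongation (Pol2Ser2). The TotalRNAPol2 libraries are titled as total polymerase, but their antibody label names the serine 5 form.

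CTCF regions without cohesin were the weaker and shorter ones of the table. Their median CTCF density, the authors' normalized read density, was 37.8 in DKO (quartiles 26.7 and 51.3) and 29.0 in HCT116 (21.0 and 39.3). CTCF regions with both subunits had a median density of 96.5 in DKO and 79.1 in HCT116. In reads per counting window, a 1 kb stretch around each region, the members had a median of 39 in DKO and 26 in HCT116, so a single member rests on few reads. The median length was 239 bp (quartiles 185 and 335 bp) without cohesin, against 858 bp with both subunits. Of the members, 68.1% were under 300 bp long and 1.03% (631 regions) were 1000 bp or longer, against 14.8% and 44.0% of the regions with both subunits.

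The share of CTCF regions that had no cohesin region fell with every step up in CTCF density. A is the mean log2 density of a region over the lines, as deposited. All CTCF regions were ordered by A and cut into 10 classes of like size, from class 1 with the lowest A to class 10 with the highest. In class 1, 71.6% of CTCF regions were without cohesin (95% interval 70.9 to 72.3%). In class 5 the share was 42.9%, in class 8 it was 13.0%, and in class 9 it was 1.65%. In class 10, 4 of 17171 regions were without cohesin (0.0233%). Without cohesin means here that no region was listed for RAD21 or SMC1, and a cohesin signal below the calling threshold cannot be told apart from none.

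**Figure D1:**
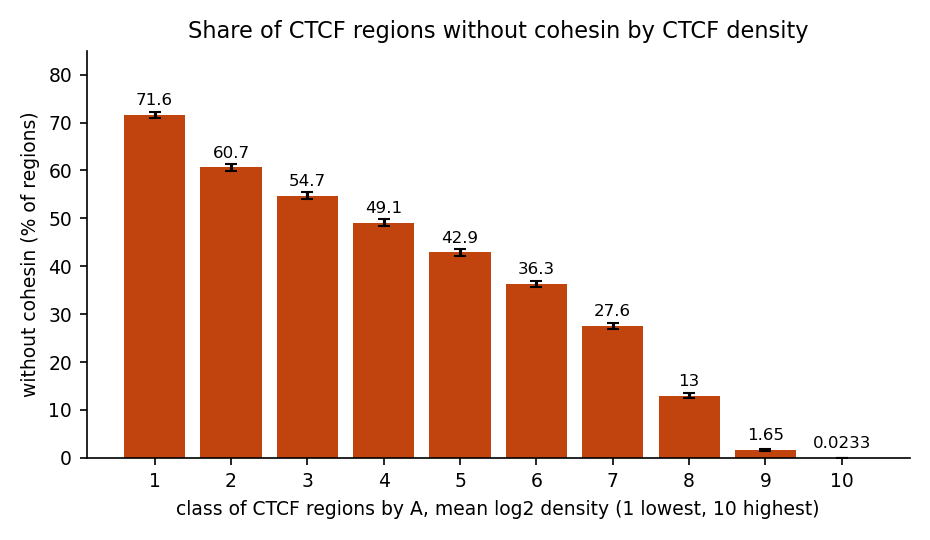
Share of CTCF regions without cohesin (y axis, percent) in 10 classes of all CTCF regions ordered by A, the mean log2 density (x axis, 1 lowest, 10 highest). Bars give the share and whiskers the Wilson 95% interval of counting regions; the share goes from 71.6% in class 1 to 0.0233% in class 10.

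The regions just inside and just outside the rule were much alike. The 3350 members that lay within 100 bp of a cohesin region had a median A of 5.31, a median M of 0.43 and a median length of 233.5 bp. The 4426 CTCF regions whose longest cohesin overlap was under 100 bp had a median A of 5.16, a median M of 0.42 and a median length of 220 bp. Acetylation or polymerase overlapped 46.4% of these members and 52.8% of the regions just outside. M is the log2 of the DKO density divided by the HCT116 density.

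Most members were called in a single line. By the authors' own grouping, 36403 members (59.3%, 95% interval 58.9 to 59.7%) were called in DKO only, 15437 (25.2%) in HCT116 only, and 9528 (15.5%) in both lines. Among the CTCF regions with both subunits, 22.3% were called in DKO only, 7.00% in HCT116 only and 70.7% in both lines. Over all CTCF regions the shares were 41.3% in DKO only, 15.1% in HCT116 only and 43.6% in both. CTCF regions with a single subunit lay between members and regions with both subunits, at 51.9%, 15.4% and 32.7%. By quartile of A, from lowest to highest, 4.48%, 16.4%, 34.3% and 65.5% of the members were called in both lines. For regions with both subunits these shares were 5.37%, 23.9%, 61.2% and 98.2%. Called in DKO only were 61.1%, 63.5%, 51.6% and 23.9% of the members, against 66.5%, 56.4%, 31.5% and 1.62%. The sets were thus close in the lowest quartile and further apart above it. A call in 1 line did not mean an empty window in the other. Members called in DKO only had a median density of 41.7 in DKO and 24.4 in HCT116. Members called in HCT116 only had 22.1 in DKO and 33.1 in HCT116, and members called in both had 45.3 in DKO and 43.6 in HCT116. A window with 0 reads was rare: 29 members had none in DKO and 17 had none in HCT116.

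As deposited, CTCF at the members was shifted toward DKO. Their median M was 0.38 (quartiles -0.21 and 0.91), against 0.12 for CTCF regions with both subunits. Among regions of like CTCF density the members' median was not the higher one throughout. By quartile of A, the median M of members and of regions with both subunits was 0.40 and 0.71 in the lowest, 0.41 and 0.42 in the second, 0.35 and 0.34 in the third, and 0.00 and -0.03 in the highest. The sets differ in their mix of densities, which the medians over all regions carry. At M of 1 or more, a 2-fold difference, 13147 members were higher in DKO (21.4%), where 20.1% of all CTCF regions were. At M of -1 or less, 5009 members were higher in HCT116 (8.16%), where 6.33% of all CTCF regions were. Both shares of members are near the shares over the whole table. M lay within 0.5 of 0 at 23787 members (38.8%). Of the members past 2-fold, 72.4% were higher in DKO (95% interval 71.8 to 73.1%), against 78.3% of the regions with both subunits that were past 2-fold.

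Large differences in favour of DKO were less common among the members. At 4-fold or more, 2013 members (3.28%) were higher in DKO, against 6.05% of the regions with both subunits and 4.84% of all CTCF regions. At 4-fold or more in the other direction, 745 members (1.21%) were higher in HCT116, against 0.465% of the regions with both subunits and 0.803% of all CTCF regions. Over all densities, the tails of the members' distribution were thus closer to even, as the plot of M by class shows. By quartile of A, from lowest to highest, 5.52%, 1.79%, 0.987% and 0.680% of members were 4-fold higher in DKO. For regions with both subunits these shares were 17.5%, 9.61%, 8.04% and 2.35%. In HCT116 they were 2.58%, 0.108%, 0.112% and 0% of members, against 2.33%, 0.5%, 0.571% and 0.128%. The members' larger share in HCT116 was thus limited to the lowest quartile, which held 709 of those 745 members.

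**Figure D2:**
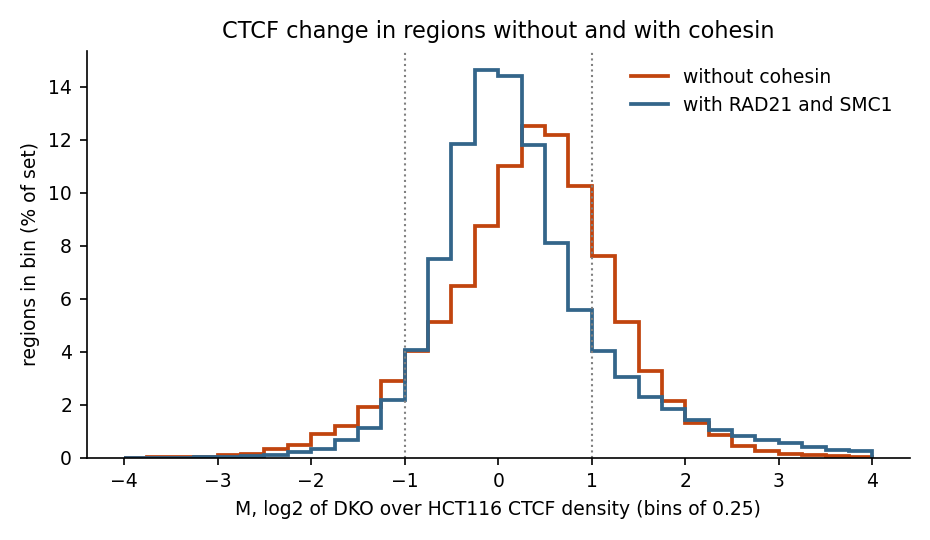
Distribution of M, the log2 ratio of DKO over HCT116 CTCF density (x axis, bins of 0.25), as the percent of each set in a bin (y axis), for CTCF regions without cohesin and with RAD21 and SMC1. Dotted lines mark 2-fold; the members' curve sits to the right of the other near its middle, with medians of 0.38 and 0.12, and falls below it beyond 4-fold on the DKO side.

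The balance of calls depended on how the lines were put on a common scale. The median M over all CTCF regions was 0.26. With M recentred by that median, the members' median was 0.12, and 8297 members were 2-fold higher in DKO and 7566 in HCT116, which makes 52.3% of those past 2-fold higher in DKO. With each chromosome's median removed that share was 54.1%, and with 1 constant scale factor in place of the authors' line it was 83.1%. Over all densities, the members' median M exceeded that of the regions with both subunits by 0.26 as deposited, by 0.26 when recentred, by 0.27 with chromosome medians removed and by 0.44 with the constant factor. In the 10 density classes as deposited it was lower in classes 1 to 4 (0.33 in members and 1.00 with both subunits in class 1) and differed by less than 0.05 in classes 5 to 8. Among the 9528 members called in both lines the balance turned: 277 were 2-fold higher in DKO and 361 in HCT116, so that 43.4% of those past 2-fold were higher in DKO (95% interval 39.6 to 47.3%).

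Distance from cohesin divided the members into unlike sets. The median distance from a member to the nearest RAD21 or SMC1 region was 894 bp, and 32367 members (52.7%) lay within 1 kb of one. Of those near members, 21.7% were 2-fold higher in DKO and 3.24% in HCT116. From 1 to 5 kb there were 14467 members, of which 22.9% were higher in DKO and 8.82% in HCT116. From 5 to 50 kb there were 13044, of which 19.0% were higher in DKO and 18.0% in HCT116. Beyond 50 kb there were 1490, of which 22.1% were higher in DKO and 22.6% in HCT116. The share higher in DKO thus stayed between 19.0% and 22.9%, while the share higher in HCT116 was larger in each more distant class.

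**Figure D3:**
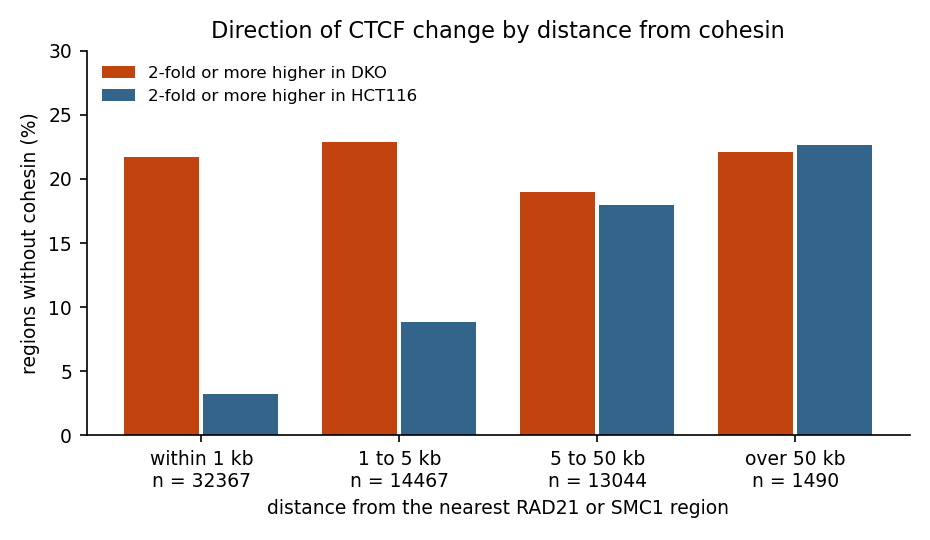
Percent of CTCF regions without cohesin (y axis) that were 2-fold or more higher in DKO, or 2-fold or more higher in HCT116, by distance from the nearest RAD21 or SMC1 region (x axis, with the number of regions). The HCT116 bars grow from 3.24% within 1 kb to 22.6% beyond 50 kb, where both bars are nearly level.

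The order of the distance classes up to 50 kb was the same under the other scales, but the side that prevailed far from cohesin was not. The share of regions higher in DKO among those past 2-fold was 87.0% within 1 kb, 72.2% from 1 to 5 kb, 51.4% from 5 to 50 kb and 49.4% beyond 50 kb, as deposited. With M recentred on all regions these shares were 69.8%, 50.6%, 33.9% and 37.3%. With chromosome medians removed they were 70.1%, 51.2%, 37.0% and 44.9%, and with the constant factor 93.0%, 83.3%, 65.6% and 62.7%. CTCF density moved with distance too: the median A was 5.17 within 1 kb, 4.90 from 1 to 5 kb, 4.70 from 5 to 50 kb and 4.42 beyond 50 kb. Near cohesin, 58.7% of members had another CTCF midpoint within 1 kb and so shared reads with it, against 17.9% of the 14534 members over 5 kb from cohesin. The part of density and of shared windows in the pattern was not tested. The 14534 members over 5 kb from cohesin had a median M of 0.01, below the 0.12 of the CTCF regions with both subunits, so the higher median of all members rested on those within 5 kb of cohesin.

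The members that stood entirely alone leaned toward HCT116 as deposited, but not on every scale. For 10473 members there was no cohesin region and no other CTCF midpoint within 5 kb. Their median density was 24.6 in DKO and 25.4 in HCT116, with a median M of -0.15. Of these, 1810 were 2-fold higher in DKO (17.3%) and 2337 in HCT116 (22.3%), so that 43.6% of those past 2-fold were higher in DKO. That share was 28.4% with M recentred and 32.0% with chromosome medians removed, but 58.4% with the constant factor, which gave a median M of 0.03.

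The members' M went along with that of their CTCF neighbours. Each member was set beside the nearest CTCF region that carried both cohesin subunits, with midpoints far enough apart to share no window. At 5 to 50 kb, members whose neighbour was 2-fold higher in DKO had a median M of 0.78 (3547 members), those whose neighbour was within 0.5 of 0 had 0.20 (11728), and those whose neighbour was 2-fold higher in HCT116 had -0.41 (1288). At 50 to 500 kb the medians were 1.01 (764 members), 0.05 (1954) and -0.91 (401). The same order held with chromosome medians removed, at 0.49, -0.055 and -0.61 for the 5 to 50 kb class, and without chromosomes X and Y, at 1.01, 0.07 and -0.85 for the 50 to 500 kb class. Among members called in both lines the spread was smaller, with medians of 0.14 (98 members), -0.06 (427) and -0.43 (85) at 50 to 500 kb. Members and neighbours come from the same library pair, and a shared gain or loss of DNA was not tested.

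Single members with the largest differences held reads in 1 line and nearly none in the other. They were taken from the 13018 members for which the larger of the DKO and HCT116 densities reached 57.0, the CTCF table's median. Positions are in hg19 as the authors' tables give them, and a gene annotation of that build was not used here. The highest M belonged to chr2:5832083-5832667, with 93 CTCF reads in DKO and 1 in HCT116 (M of 5.25, exact 95% counting interval 3.72 to 11.55). The second, chr22:46658847-46659035, had 221 in DKO and 6 in HCT116 (M of 4.82, interval 3.89 to 6.50). Both lay close to cohesin, at 115 and 150 bp, and both were called in DKO only. The third, chr2:132057576-132058155, had 85 reads in DKO and 2 in HCT116, an M of 4.56, and lay 10510 bp from cohesin. The fourth and the fifth were chr22:50242184-50242623, with 75 reads in DKO and 2 in HCT116, and chr20:62948093-62948371, with 65 in DKO and 2 in HCT116. The first 4 lay 566, 430, 771 and 481 bp from another CTCF midpoint, so their windows overlap a neighbour's and may hold its reads. At the lower bound of the counting interval all 5 stood above 4-fold, the lowest such bound being 2.81. These 5 were picked for their high M, which the interval does not allow for.

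At the other end, the 5 members with the lowest M had few reads in DKO. Of these, 4 overlapped neither acetylation nor polymerase, as did 78.2% of all members 2-fold higher in HCT116. At chr2:13022042-13022442 there were 3 CTCF reads in DKO and 56 in HCT116 (M of -4.12, interval -6.83 to -2.89). At chrX:26460425-26461051 there were 7 reads in DKO and 91 in HCT116 (M of -3.74, interval -5.27 to -2.82), and the nearest cohesin region was 206619 bp away. The members chr7:82954265-82954764, with 6 reads in DKO and 55 in HCT116, and chr2:83299524-83299775, with 7 in DKO and 63 in HCT116, followed with M of -3.26 and -3.24. All 4 were called in HCT116 only and were picked by their low M, which the intervals do not allow for. The one at chr2:83299524-83299775 lay 439 bp from another CTCF midpoint, so its window overlaps a neighbour's. The lowest value of all lay on chromosome Y, at chrY:2803937-2804314, where the DKO library had 0 reads and the HCT116 library 79. With a floor of 3 reads put in place of 0 in DKO, its density was 33.8-fold lower in that library. As deposited its M was -6.68, and the counting interval had no lower bound and an upper bound of -4.75. Of the 30 members on chromosome Y, 22 had 0 reads in DKO, and missing DNA cannot be told apart there from missing binding.

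**Figure D4:**
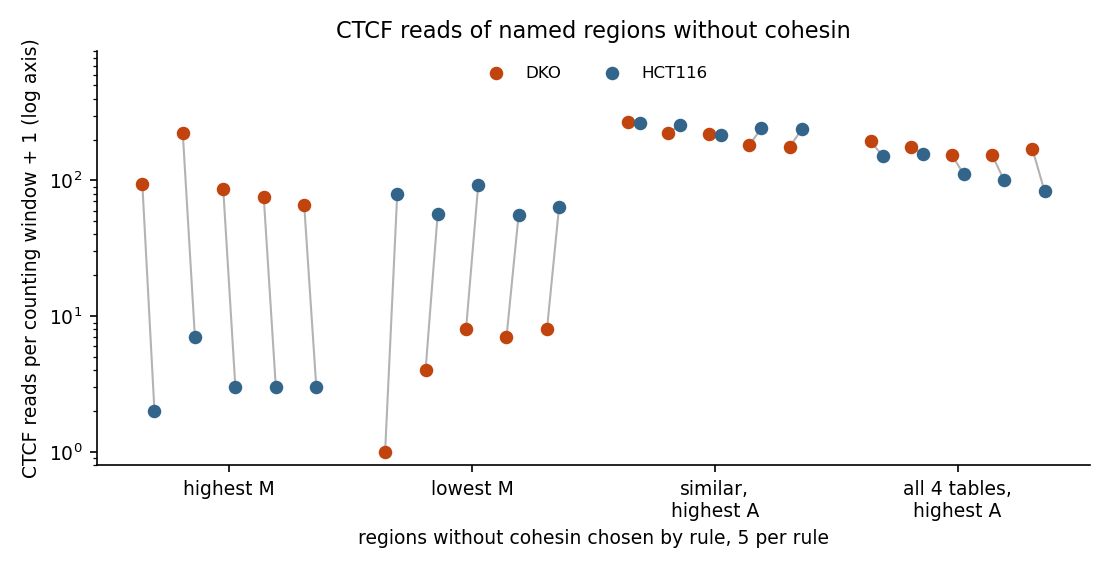
CTCF reads per counting window plus 1 (y axis, log scale) in DKO and in HCT116 for 20 named regions without cohesin, 5 per rule (x axis: highest M, lowest M, similar with highest A, and overlapping all 4 acetylation and polymerase tables with highest A). A line joins the values of 1 region; the sets of highest and lowest M lie far apart between the lines, on opposite sides; in the similar set the values lie close together, and in the set with all 4 tables the DKO value is the higher one in each region, with M between 0.19 and 1.00.

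Strong binding without cohesin was uncommon. In the top quartile of A, 1030 CTCF regions were without cohesin (2.40% of the quartile), and 675 of them were called in both lines (65.5%). In the same quartile, 98.2% of the regions with both subunits and 87.0% of those with a single subunit were called in both. Their median density was 97.2 in DKO and 95.8 in HCT116, with a median M of 0.00, and 570 had M within 0.5 of 0. Regions with both subunits in the same quartile reached 189 in DKO and 202 in HCT116, so even these members sat at its lower end. The median length of the strong members was 614 bp, against 1533 bp. Of the strong members, 572 lay within 1 kb of a cohesin region, with 42.7% of them called in both lines, and 260 lay over 5 kb from any. Another CTCF midpoint lay within 1 kb of 59.4% of the strong members, 75.9% of those 572 and 34.6% of those 260. For regions with both subunits in the quartile this share was 20.8%. Windows of such members overlap a neighbour's, and its part in their density was not tested. Of those 260 remote strong members, 252 were called in both lines, 9 were 2-fold higher in DKO and 20 in HCT116, and 24.2% overlapped acetylation or polymerase.

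The strongest similar members were picked for M within 0.5 of 0, so their likeness between the lines was set by that rule. Not all were equal within counting error: the intervals at chr4:4727282-4728996 and chr20:58002887-58004768 excluded 0. The strongest of these similar members, chr20:44074194-44075372, had 266 CTCF reads in DKO and 263 in HCT116 (M of 0.09, interval -0.16 to 0.35). It lay 828 bp from cohesin. At chr4:4727282-4728996 there were 180 reads in DKO and 242 in HCT116 (M of -0.38, interval -0.67 to -0.09), with cohesin 13972 bp away. At chr20:58002887-58004768 there were 175 reads in DKO and 238 in HCT116 (M of -0.40, interval -0.69 to -0.11), with cohesin 8680 bp away. With M recentred, the chromosome 4 member had -0.64 and this one -0.66, more than 0.5 from 0. Also among the strongest were chr12:118620491-118620874, with 223 reads in DKO and 255 in HCT116, and chr11:17884845-17886900, with 217 in DKO and 216 in HCT116, at 94 and 381 bp from cohesin. None of these 5 overlapped acetylation or polymerase in either line, nor did chr20:43012632-43012796, with 215 reads in DKO and 216 in HCT116, which was called in DKO only. That region lay 95 bp from cohesin and 318 bp from another CTCF midpoint, and those at chr12:118620491-118620874 and chr20:44074194-44075372 lay 592 and 977 bp from one, so their windows overlap a neighbour's. Chosen after their values were seen, the strongest members over 5 kb from cohesin were those on chromosome 4 and chromosome 20 just given, then chr12:55073008-55074920, with 167 reads in DKO and 247 in HCT116, and chr17:74428622-74430370, with 159 in DKO and 213 in HCT116. In these 4 the DKO value was the lower one, and each interval of M excluded 0. The next were chr17:48457608-48459225, with 194 reads in DKO and 170 in HCT116, and chr6:166489491-166490908, with 207 in DKO and 157 in HCT116. As deposited the DKO value was the higher one in both. At chr17:48457608-48459225 the interval of M, -0.08 to 0.53, included 0. M there was -0.04 when recentred and -0.22 with chromosome medians removed. At chr6:166489491-166490908 the interval was 0.12 to 0.74.

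Fewer members lay in active chromatin than CTCF regions with cohesin. H3K27Ac regions overlapped 20.9% of the members (95% interval 20.6 to 21.2%), against 55.3% of the CTCF regions with both subunits. Pol2Ser5 overlapped 9.31% of the members against 43.4%, Pol2Ser2 13.6% against 38.5%, and TotalRNAPol2 13.3% against 47.7%. At least 1 of these 4 tables overlapped 31.6% of the members (31.2 to 31.9%), against 65.1%. All 4 overlapped 2.88% of the members (1767 regions), against 27.3%. The CTCF regions with a single subunit lay between, with 42.9% of those with RAD21 alone and 60.0% of those with SMC1 alone overlapping at least 1 table.

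The gap was also present among regions of like CTCF density. In the lowest quartile of A, 24.3% of the members and 68.9% of the regions with both subunits overlapped at least 1 table. The shares were 35.0% of members and 73.5% in the second quartile, 41.6% of members and 69.3% in the third, and 38.2% of members and 60.1% in the highest. The members in each quartile were shorter, with medians of 210, 256, 318 and 614 bp against 267, 333, 542 and 1533 bp, and a shorter region has less room to overlap. Within 5 kb, 69.4% of the members had a region of at least 1 table, against 81.6% of the regions with both subunits and 75.9% of all CTCF regions.

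**Figure D5:**
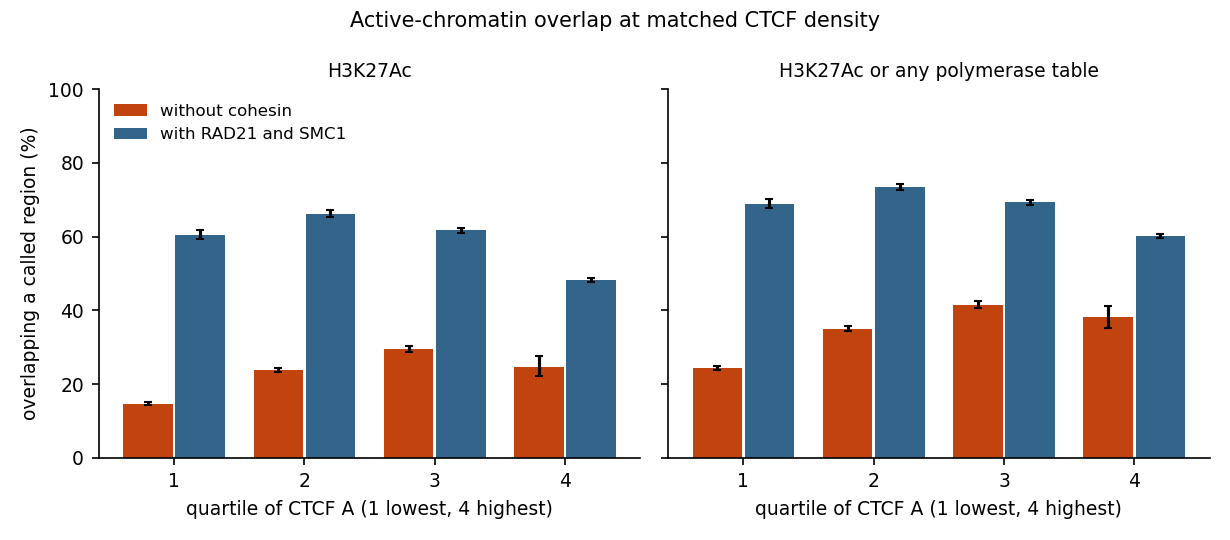
Percent of CTCF regions (y axis) overlapping an H3K27Ac region (left) or a region of any of the H3K27Ac and 3 polymerase tables (right), by quartile of CTCF A (x axis, 1 lowest), for regions without cohesin and with RAD21 and SMC1. Whiskers are Wilson 95% intervals of counting regions; the members' bar is the lower one in every quartile, at 24.3% against 68.9% for any table in the lowest quartile.

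Members far from cohesin were rarely acetylated. H3K27Ac overlapped 26.6% of the members within 1 kb of cohesin, 22.9% at 1 to 5 kb, 6.75% at 5 to 50 kb and 0.940% beyond 50 kb. At least 1 of the 4 tables overlapped 37.2%, 36.1%, 15.8% and 3.96% of the members in these classes.

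The more active tables a member overlapped, the higher its CTCF stood in DKO. The median M of CTCF was 0.29 at members with none of the 4 tables, 0.52 with 1, 0.61 with 2, 0.67 with 3 and 0.79 with all 4. The share 2-fold higher in DKO was 18.3%, 24.9%, 29.4%, 32.4% and 36.8% along that order, and the share 2-fold higher in HCT116 was 9.33%, 6.34%, 5.46%, 5.05% and 2.89%. CTCF density in DKO moved with the count of tables, with medians of 35.2, 43.4, 44.1, 45.8 and 49.7, while the medians in HCT116 stayed between 28.7 and 30.7. The members with H3K27Ac and no polymerase table, 6920 regions, had a median M of 0.54, and the 2106 with Pol2Ser2 alone had 0.48. Distance from cohesin moved along this order too, from a median of 1081 bp with none of the tables to 412 bp with all 4, and its part was not tested.

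Polymerase at the members differed between the lines on the side that CTCF did. TotalRNAPol2 had a median M of 1.19 where CTCF was 2-fold higher in DKO (2558 members), 0.47 where CTCF was within 0.5 of 0 (2455) and -0.68 where CTCF was 2-fold higher in HCT116 (438). With the constant scale factor these medians were 0.86, 0.20 and -1.24. Of those 2558 members, 1542 had TotalRNAPol2 2-fold higher in DKO (60.3%), where 20.7% of all TotalRNAPol2 regions were. Of the 438 members, 165 had TotalRNAPol2 2-fold higher in HCT116 (37.7%), where 10.2% of all its regions were. Pol2Ser5 had medians of 0.75, 0.19 and -0.59 in these classes. It was 2-fold higher in DKO at 40.7% of the members higher in DKO for CTCF, where 14.9% of all Pol2Ser5 regions were, and 2-fold higher in HCT116 at 41.8% of the members higher in HCT116 for CTCF, where 21.0% were. Pol2Ser2 had medians of 0.69, 0.21 and -0.31, or 0.62, 0.057 and -0.56 with the constant factor. For this target, 35.7% of the members higher in DKO for CTCF were 2-fold higher for Pol2Ser2, where 18.6% of all its regions were. Of the members higher in HCT116 for CTCF, 22.2% were 2-fold higher in HCT116 for Pol2Ser2, where 10.9% of all its regions were. Among all members that overlapped the target in question, 36.1% were 2-fold higher in DKO for TotalRNAPol2, 24.9% for Pol2Ser5 and 25.1% for Pol2Ser2. In HCT116 the shares were 5.22%, 8.93% and 7.29%. At CTCF regions with both subunits the medians in the same classes were 1.39, 0.11 and -0.94 for TotalRNAPol2. They were 1.02, -0.02 and -0.84 for Pol2Ser5, and 0.83, 0.35 and -0.16 for Pol2Ser2. The pattern was thus not particular to the members. Several members can match 1 polymerase region, and these shares compare libraries of the same line pair.

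H3K27Ac at the members differed between the lines mainly where CTCF was higher in HCT116. Its median M was 0.03 at the 3626 acetylated members with CTCF 2-fold higher in DKO, a value that turned to -0.01 with the constant scale factor, -0.09 at the 4097 similar members, and -0.88 at the 763 members with CTCF 2-fold higher in HCT116. Of the 3626, 526 had H3K27Ac 2-fold higher in DKO (14.5%), where 11.0% of all H3K27Ac regions were. Of the 763, 345 had H3K27Ac 2-fold higher in HCT116 (45.2%), where 10.4% of all H3K27Ac regions were. At CTCF regions with both subunits the medians were 0.37, -0.05 and -0.83 in the same classes, so the value on the DKO side was 0.03 without cohesin against 0.37 with both subunits. The H3K27Ac regions that members overlapped had a median length of 555 bp, against 1666 bp at CTCF regions with both subunits.

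The strongest members inside active chromatin had the higher CTCF density in DKO as deposited, by up to 2-fold, though not beyond counting error in each. At chr12:49297124-49298496 there were 193 CTCF reads in DKO and 150 in HCT116 (M of 0.38, interval 0.07 to 0.70), with 61 H3K27Ac reads in DKO and 32 in HCT116. At chr9:131579897-131580185 there were 175 CTCF reads in DKO and 155 in HCT116 (M of 0.19, interval -0.13 to 0.51, which includes 0). That member had 734 TotalRNAPol2 reads in DKO and 252 in HCT116, with an M of 0.44 after the authors' normalization. The other members of this set were chr19:4647838-4648832, with 154 CTCF reads in DKO and 110 in HCT116, chr1:17023495-17025184, with 153 in DKO and 99 in HCT116, and a region on chromosome 8 with 168 in DKO and 82 in HCT116. The DKO value was the higher one in all 5, and M lay between 0.19 and 1.00. At chr9:131579897-131580185 M changed sign when recentred (-0.07) and with chromosome medians removed (-0.16). At chr19:4647838-4648832 M was 0.03 with chromosome medians removed. The other targets were not all higher in DKO. H3K27Ac had an M of -0.23 at chr19:4647838-4648832 and of -0.59 at chr1:17023495-17025184. Pol2Ser2 had an M of -0.20 at chr12:49297124-49298496. Every other acetylation and polymerase M of these 5 members was above 0. The members on chr12, chr9 and chromosome 8 lay 964, 520 and 849 bp from another CTCF midpoint, so their windows overlap a neighbour's.

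Members with the largest acetylation differences showed CTCF on the same side. At chr7:153109159-153109621 there were 694 H3K27Ac reads in DKO and 10 in HCT116 (M of 6.22). That member had 61 CTCF reads in DKO and 8 in HCT116, 645 Pol2Ser5 reads in DKO and 9 in HCT116, and 538 TotalRNAPol2 reads in DKO and 12 in HCT116, so all of these targets stood on the DKO side. At chr14:106936101-106936528 there were 105 H3K27Ac reads in DKO and 3 in HCT116, with 72 CTCF reads in DKO and 4 in HCT116. At chr15:26029590-26029938 there were 195 H3K27Ac reads in DKO and 6 in HCT116, with 82 CTCF reads in DKO and 10 in HCT116, and no polymerase region. The members at chr14:106936101-106936528 and chr15:26029590-26029938 lay 480 and 934 bp from another CTCF midpoint, so their CTCF windows overlap a neighbour's. On the HCT116 side, chr1:66737609-66737912 had 20 H3K27Ac reads in DKO and 409 in HCT116, 12 CTCF reads in DKO and 56 in HCT116, and 4 Pol2Ser5 reads in DKO and 68 in HCT116. The member chr17:62162083-62162307 had 45 H3K27Ac reads in DKO and 705 in HCT116, with 29 CTCF reads in DKO and 57 in HCT116. The chromosome Y member named above was the lowest for H3K27Ac as well, with 0 reads in DKO and 133 in HCT116.

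Cohesin counted only in the cell line where CTCF was called gave similar shares of CTCF regions without it. Of 145711 CTCF regions called in DKO, 36.3% had no cohesin region called in DKO. Of 100756 called in HCT116, 33.6% had none called in HCT116. The CTCF regions without cohesin had a median M of 0.58 in the DKO set and -0.19 in the HCT116 set. Acetylation or polymerase overlapped 36.9% and 27.7% of them. Each set was chosen by CTCF calls in its own line, and those calls come from the same libraries as M. Of the 74774 CTCF regions called in both lines, 71.8% had cohesin called in both, 9.99% in DKO only, 5.46% in HCT116 only and 12.7% in neither. Those with cohesin called in DKO only had a median CTCF M of 0.35, those with cohesin called in HCT116 only -0.20, and the members, with cohesin in neither, 0.06.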

How the data were processed

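Chromatin immunoprecipitation libraries of DKO and HCT116 cells, 1 per line for each of 7 targets, were analysed, and the 2 input libraries were not used here. Samples were grouped by line and target from their titles. The TotalRNAPol2 titles name total polymerase while their antibody label names Pol2Ser5, and the title was followed. Reads were aligned with BWA to hg19, and MACS2 is named for every target but TotalRNAPol2, per the submitters' processing notes. Not given in the sources used here are versions, thresholds and the normalizing tool. Each deposited table lists regions called in DKO only, HCT116 only or both, with the signal of each line as a read density normalized by the authors, per the file headers. M, the log2 ratio of DKO over HCT116, and A, the mean log2 density, were deposited by the authors. The p-value per region deposited by the authors was used only in 1 alternative filter. Each table was normalized separately, so levels were compared only within a table, and M from different tables was set side by side only as differences between the lines.

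Overlaps were computed with numpy 2.4.6 and pandas 2.3.3 and membership was checked with bedtools 2.31.1; intervals came from scipy 1.17.1. The longest overlap decided which region of another table a CTCF region was matched to. Whole reads per counting window (1 kb for CTCF, RAD21 and SMC1, 2 kb for the others) were recovered from M and A, with 100% of the CTCF values whole within 0.05 after the 1 read added by the authors' scaling. Median reads per CTCF region were 55 in DKO and 36 in HCT116. PCR reads carry no molecular identifiers, so intervals cover counting error only. The scripts were tested on simulated data.

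Named regions were, among members with a higher density at or above the table median, the 5 with the highest and the 5 with the lowest M and the 3 with the highest and the 3 with the lowest H3K27Ac M; and among all members the 5 with the highest A of those called in both lines with M within 0.5 of 0, of those overlapping all 4 of the H3K27Ac and polymerase tables, and of those overlapping none. Of regions within 1 kb the first was taken. The members, lists and tests were chosen with earlier results of these data known. Motif and CpG content of the regions, planned only for a genome of the files' build, was not analysed here, and no sequence is printed.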

Additional observations from a re-analysis of the deposited data

How the results depend on the processing

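Of 139 alternative values of the leading results, 35 lay within the counting error or 1.5 times of the value as reported, 95 moved beyond it and 9 turned to the other side; with so many regions the counting error is narrow, and where the cause is not given by the alternative's own construction it was not tested. The number of members was 29001 with no cohesin within 1 kb, 14534 with none within 5 kb, 13018 at or above the table's median density and 5668 at a deposited p under 1e-05; overlap of 100 bp, either cohesin table alone and calls matched by line stayed within 1.5 times. The members' median M was 0.25 with no cohesin within 1 kb, 0.0086 with none within 5 kb, 0.66 at or above the median density, 1.68 at a deposited p under 1e-05, 0.12 recentred, 0.53 with a constant factor, 0.13 with chromosome medians removed, 0.057 called in both lines, 0.39 without chromosome X and 0.28 with no other CTCF midpoint within 1 kb. Its difference from CTCF regions with both subunits was 0.13 with no cohesin within 1 kb, -0.11 with none within 5 kb, 0.56 at or above the median density, 0.59 at a deposited p under 1e-05, 0.44 with a constant factor, 0.060 called in both lines and 0.19 with no other CTCF midpoint within 1 kb. The members 2-fold higher in DKO numbered 6119 with no cohesin within 1 kb, 2806 with none within 5 kb, 4335 at or above the median density, 4702 at a deposited p under 1e-05, 8297 recentred, 8401 with chromosome medians removed, 277 called in both lines, 6602 with no other CTCF midpoint within 1 kb, 24300 at 1.5-fold and 2013 at 4-fold. Those higher in HCT116 numbered 2683 with no cohesin within 5 kb, 647 at or above the median density, 865 at a deposited p under 1e-05, 7566 recentred, 361 called in both lines, 9467 at 1.5-fold and 745 at 4-fold. The share higher in DKO among those past 2-fold was 60.7% with no cohesin within 1 kb, 51.1% with none within 5 kb, 87.0% at or above the median density, 84.5% at a deposited p under 1e-05, 52.3% recentred, 83.1% with a constant factor, 54.1% with chromosome medians removed, 43.4% called in both lines, 73.2% without chromosome X, 61.0% with no other CTCF midpoint within 1 kb and 73.1% with cohesin matched by line. The share called in DKO only was 51.1% with no cohesin within 1 kb, 42.2% with none within 5 kb, 60.4% at or above the median density, 80.7% at a deposited p under 1e-05, 59.8% without chromosome X, 53.2% with no other CTCF midpoint within 1 kb and 59.9% with cohesin matched by line. The median length was 243 bp with no cohesin within 5 kb, 341 bp at or above the median density, 317 bp at a deposited p under 1e-05 and 403 bp called in both lines. The share overlapping acetylation or polymerase was 25.3% with no cohesin within 1 kb, 14.6% with none within 5 kb, 45.8% at or above the median density, 46.8% at a deposited p under 1e-05, 26.4% called in both lines, 29.2% with no other CTCF midpoint within 1 kb, 33.4% with cohesin matched by line, 28.6% at 100 bp of overlap and 69.4% within 5 kb. At members higher in DKO for CTCF, the median H3K27Ac M was 0.0026 with no cohesin within 1 kb, 0.34 with none within 5 kb, 0.12 recentred and 0.15 with chromosome medians removed, and it was below 0 with a constant factor (-0.0054), at or above the median density (-0.039) and called in both lines (-0.12). The median TotalRNAPol2 M there was 1.13 with no cohesin within 1 kb, 1.24 with none within 5 kb, 1.31 at a deposited p under 1e-05, 1.05 recentred, 0.86 with a constant factor, 1.06 with chromosome medians removed and 0.98 called in both lines. The median Pol2Ser5 M at similar members was -0.22 with no cohesin within 5 kb. The share without cohesin was 0.0233% in class 10 of A and 2.11% in the top quartile of the higher density. The balance by distance was examined under alternatives chosen after seeing the data: within 1 kb, from 1 to 5 kb and over 5 kb of cohesin, the share higher in DKO was 69.8%, 50.6% and 34.3% recentred, 93.0%, 83.3% and 65.3% with a constant factor, 70.1%, 51.2% and 38.0% with chromosome medians removed, 91.3%, 89.2% and 67.2% at or above the median density, 62.6%, 50% and 30.9% called in both lines, and 80.7%, 64.2% and 46.0% with no other CTCF midpoint within 1 kb; over 5 kb it was 52.5% without chromosomes X and Y. For members with no cohesin and no other CTCF midpoint within 5 kb, also examined after seeing the data, the share was 58.4% and the median M 0.030 with a constant factor, on the other side of the deposited values. Of 290 values of single regions and lesser shares, 145 stayed within error, 142 moved beyond it and 3 turned. No paired analysis was possible because each line has 1 library per target. The motif and CpG alternatives were not run, since no genome of the files' build was used here. Depth limits single members, with medians of 39 reads in DKO and 26 in HCT116.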

Other observations

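The share of CTCF regions without cohesin varied little between chromosomes, from 30.4% on chromosome 21 to 42.0% on chromosome X, leaving aside chromosome Y, where 30 of 42 regions were without cohesin. The members' median M varied more. It was 0.69 on chromosome 21, 0.65 on chromosome 22 and 0.59 on chromosome 20, against 0.11 on chromosome 13 and -0.02 on chromosome X. On chromosome X, 218 members were 2-fold higher in DKO (13.3%) and 270 in HCT116 (16.4%), and on chromosome 13 the numbers were 199 and 220. On chromosome 22, 501 were 2-fold higher in DKO (30.0%) and 50 in HCT116 (2.99%). CTCF regions with both subunits had medians of 0.45 on chromosome 21, 0.39 on chromosome 22 and -0.33 on chromosome X. The share of members overlapping acetylation or polymerase was 60.1% on chromosome 19 and 15.2% on chromosome 18.

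The windows with the most members also held many CTCF regions that were not members. In the windows given below, members made up 33.0% to 46.4% of the CTCF regions, against 35.7% over the whole table. Of the 2859 windows of 1 Mb that held any member, the median held 17. The window from 85 to 86 Mb of chromosome 16 held 136 members among 293 CTCF regions (46.4%). Of these members, 90 overlapped acetylation or polymerase, 39 were 2-fold higher in DKO and 0 in HCT116. The window from 2 to 3 Mb of chromosome 1 held 113 members among 299 CTCF regions (37.8%), with a median M of 1.14 and 64 that were 2-fold higher in DKO and 0 in HCT116. The window from 61 to 62 Mb of chromosome 20 held 104 among 315 (33.0%), with a median M of 1.07. The median was lower, at 0.27, in the window from 5 to 6 Mb of chromosome 19. That window held 111 members among 244 CTCF regions (45.5%), with 22 that were 2-fold higher in DKO and 2 in HCT116. These windows were chosen after their values were seen.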
